A study of Mus musculus with 12 samples.

Results

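The interleukin 6 (IL-6) family genes described here were 10 genes taken by symbol: the cytokines Il6, Il11, Osm and Lif, the receptor genes Il6ra, Il11ra1, Il6st and Osmr, the transcription factor Stat3 and its target Socs3. All 10 were among the 17734 genes of the deposited expression table, and all 10 passed the filter on low values, which kept 15315 genes whose values averaged 0.1 or more in the 12 mice. Osm passed it only through the colitis mice, since its mean in the 9 other mice was 0.0722, so counts below that include Osm are also read without it. Bulk RNA of the rectum, which the labels call colorectum, was sequenced from 12 male C57BL/6 mice of 8 to 10 weeks, 3 to each of the 4 groups. Normal mice drank water, and colitis mice drank 2.5% dextran sulfate sodium (DSS), a polymer that injures the bowel lining, for 7 days. The other 2 groups, called normal and colitis mice receiving BBR, were kept in the same way and also had daily gavage of berberine (BBR), a plant alkaloid, at a dose of 100 mg/kg. The study's methods give 7 days of BBR and the labels 6. No group carried an engineered allele, and each library came from 1 mouse. Mice are named here by group and by the number in their label, which is 1, 3 or 4 in both normal groups, 1, 2 or 4 in colitis mice, and 2, 3 or 4 in colitis mice receiving BBR.

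Cytokines of the IL-6 family act through receptors that contain gp130, the shared signalling chain encoded by Il6st. IL-6 and IL-11 each bind an own alpha receptor, encoded by Il6ra and Il11ra1, before gp130 is engaged, whereas oncostatin M, the product of Osm, signals through gp130 with the receptor encoded by Osmr, and LIF uses gp130 with another partner chain. The receptors activate Janus kinases, which phosphorylate Stat3, and Stat3 induces Socs3, an inhibitor that binds gp130 and limits the signal. In the bowel the pathway is known for its parts in inflammation and in regeneration of the epithelium.

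The promoter sequences of the members that stood out in colitis mice, together with that of Lif, are shown because each window printed holds a short motif of a factor tied to these pathways. Windows of 300 bases, from 250 bases before to 50 after the transcript start, were taken from RefSeq on the GRCm38.p6 build of the mouse genome, written 5′ to 3′ on the strand of the gene. They were found for 9 of the 10 genes, in 11 windows. Osm had no entry. Capitals mark matches to TGANTCA (AP-1), TTGCNNAA (C/EBP) or TTCNNNGAA (Stat), searched on both strands.
Il6 (chr5:30012864-30013163, plus strand): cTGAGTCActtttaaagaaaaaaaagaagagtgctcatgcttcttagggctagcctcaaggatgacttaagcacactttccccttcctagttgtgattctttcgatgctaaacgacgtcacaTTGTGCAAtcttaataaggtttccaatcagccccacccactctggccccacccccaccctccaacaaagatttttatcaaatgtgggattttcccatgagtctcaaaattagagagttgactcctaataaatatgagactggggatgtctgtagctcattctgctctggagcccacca
Il11 (chr7:4778092-4778391, minus strand): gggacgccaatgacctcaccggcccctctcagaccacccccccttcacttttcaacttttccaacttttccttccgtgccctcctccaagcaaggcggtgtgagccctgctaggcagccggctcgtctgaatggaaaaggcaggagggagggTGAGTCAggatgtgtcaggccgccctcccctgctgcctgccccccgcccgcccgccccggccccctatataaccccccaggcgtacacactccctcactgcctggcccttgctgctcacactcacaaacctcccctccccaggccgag
Lif (chr11:4257318-4257617, plus strand): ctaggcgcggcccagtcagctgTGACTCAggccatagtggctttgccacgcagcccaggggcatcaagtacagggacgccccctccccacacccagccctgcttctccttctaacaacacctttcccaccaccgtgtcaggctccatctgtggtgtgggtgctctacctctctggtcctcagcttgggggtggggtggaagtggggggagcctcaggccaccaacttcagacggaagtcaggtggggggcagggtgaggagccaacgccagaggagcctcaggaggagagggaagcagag
Osmr (chr15:6874264-6874563, minus strand): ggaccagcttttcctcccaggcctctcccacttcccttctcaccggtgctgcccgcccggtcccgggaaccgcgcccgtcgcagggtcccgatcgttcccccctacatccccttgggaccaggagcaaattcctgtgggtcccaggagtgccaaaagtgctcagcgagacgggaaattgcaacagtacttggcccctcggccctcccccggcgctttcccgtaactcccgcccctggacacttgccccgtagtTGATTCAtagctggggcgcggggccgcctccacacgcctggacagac
Socs3 (chr11:117969317-117969616, minus strand): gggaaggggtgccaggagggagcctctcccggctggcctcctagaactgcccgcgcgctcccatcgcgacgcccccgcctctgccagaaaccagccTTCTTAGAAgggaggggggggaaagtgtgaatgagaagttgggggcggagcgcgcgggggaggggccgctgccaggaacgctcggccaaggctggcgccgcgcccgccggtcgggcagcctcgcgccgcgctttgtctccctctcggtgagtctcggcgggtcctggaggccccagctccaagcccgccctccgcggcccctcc

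The letters TGANTCA were present in 4 of the 11 windows, those of Il6, Il11, Lif and Osmr, against 7.81% of all 32851 promoter windows. The C/EBP letters were found in the Il6 window and the Stat letters in the Socs3 window, against 10.8% and 8.3% of all windows. Relative to the start of the transcript, the Stat match of Socs3 began at position -154, and the AP-1 matches began at -249 in Il6, at -98 in Il11, at -228 in Lif and at 4 in Osmr. The C/EBP match of Il6 began at -128. The windows of Il6ra, Il11ra1, Il6st and Stat3, and a second window of Il11 that is not printed, held none of these letters. A match of letters is a description of the sequence, and binding was not measured.

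Values are read as FPKM, a level per length of transcript and per depth of library, so that levels can be compared between genes. The unit is not named in the sources used here, and TPM cannot be told apart from it. In normal mice the mean levels ran from Stat3 at 33.1 ± 1.92 FPKM (SD, n = 3) through Il11ra1 at 15.2 ± 2.61, Il6st at 12.6 ± 4.89, Socs3 at 3.45 ± 1.2, Il6ra at 2.30 ± 0.756, Osmr at 1.83 ± 0.530 and Lif at 1.02 ± 0.192 to Il11 at 0.133 ± 0.0924, Osm at 0.0867 ± 0.0757 and Il6 at 0.0433 ± 0.0404. Neighbours in this order overlapped between mice except at 4 steps, from Stat3 to Il11ra1, from Il6st to Socs3, from Osmr to Lif and from Lif to Il11. Stat3, Socs3 and the receptor genes were thus all above the cytokines in uninflamed tissue. The order was different in colitis mice, in which Socs3 at 46.3 ± 12.4 FPKM (SD, n = 3) stood level with Stat3 at 45.3 ± 7.13, and Il11 at 6.60 ± 5.52 and Il6 at 3.66 ± 2.02 had higher means than Lif at 1.45 ± 0.330. Il11 did not overlap Lif in colitis mice, whereas Il6 did, since mouse 4 had 1.49 FPKM of Il6 and 1.78 of Lif. Socs3 had a higher mean than 37.8% of the genes tested in normal mice and than 88.3% in colitis mice.

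**Figure D1:**
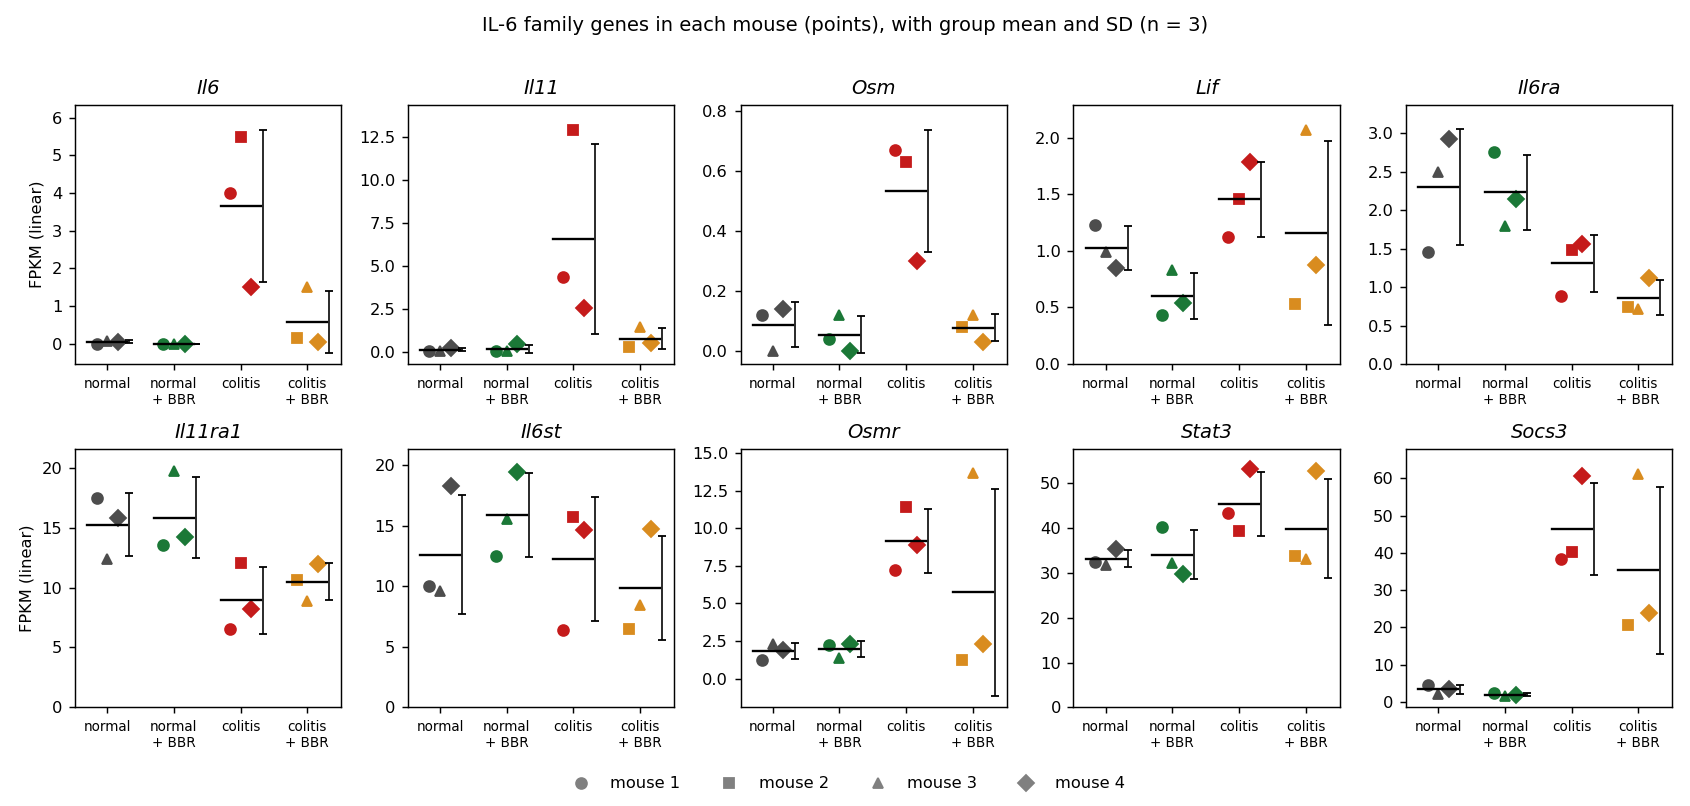
Level of each of the 10 genes in every mouse, in FPKM on a linear axis of its own for each gene. Points are mice, with a shape for each mouse number, horizontal lines are group means and the bars beside them are SDs (n = 3). Socs3 is at most 4.65 in all 6 mice without DSS and at least 20.76 in all 6 mice given DSS, whereas Il6, Il11 and Osm are high in colitis mice and, in colitis mice receiving BBR, higher in mouse 3 than in mice 2 and 4.

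The libraries differed in ways that touch these values. The 4 mice numbered 4, which are 1 in each group, had column totals of 482194 to 504337 and 872 to 1086 genes at 0, against totals of 696286 to 765876 and 1332 to 1926 genes at 0 in the other 8 mice. Markers of simple epithelium (8 of 8) and of large bowel epithelium (7 of 7) were above 0 in every mouse, and the summed level of 8 squamous markers was at most 8.49 FPKM, so the tissue carried the markers of its label. In bulk tissue, fewer cells of a type and less RNA per cell cannot be told apart. Over all genes tested, log2 fold changes had a median of -0.32 in colitis against normal mice, and of -0.05 after quantile normalization.

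The first comparison, of colitis with normal mice, asks what DSS did to the pathway. Il6, Il11 and Socs3 rose, Osm and Osmr had higher values in every colitis mouse than in any normal mouse without passing the adjusted limit, and the alpha receptors Il6ra and Il11ra1 had lower means. Differences were tested with limma on log2(FPKM + 0.1) in a fit over all 12 mice, with Benjamini-Hochberg adjustment over all 15315 genes. By this test 3 of the 10 genes were higher at an adjusted p under 0.05, against 0.653% of all genes tested, and 0 were lower, against 0.424%. At the study's limit, an unadjusted P of at most 0.05, 5 were higher and 1 was lower, against 5.56% and 15.9% of all genes. The groups did not overlap for 6 higher genes and 1 lower gene, against 7.1% and 22.2% of all genes. Osm is among the 5 and the 6 higher genes, and not among the 3. Exact permutation tests between the mice of these groups, two-sided, have 0.1 as their smallest p, which was the value for each of these 7 genes.

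Il6 encodes the founding cytokine of the family, made by macrophages, fibroblasts and other cells at inflamed sites. Its values were 4.01, 5.48 and 1.49 FPKM in colitis mice 1, 2 and 4, and 0, 0.08 and 0.05 in normal mice 1, 3 and 4. Every normal mouse was below the value that 3 reads would give, 0.14 to 0.22 FPKM over the 12 mice, so the normal level was not separable from a few reads. From the size of the steps that separate low values, about 171 reads stood behind the colitis mice and 2 behind the normal mice, a ratio of 81.9 with an exact 95% interval of 22.3 to 681.0 for counting error only. The fitted log2 fold change was 4.57 (SE 0.76, limma adjusted p = 0.0218). It depends on the constant added before the logarithm, and was 2.05 with a constant of 1 and 6.41 with 0.01.

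Il11 encodes a cytokine that stromal cells release in injured tissue. Colitis mice 1, 2 and 4 had 4.35, 12.89 and 2.56 FPKM, and normal mice 1, 3 and 4 had 0.08, 0.08 and 0.24, so the lowest colitis mouse stood far above the highest normal mouse. Its log2 fold change was 4.59 (SE 0.71, limma adjusted p = 0.0162), as large as that of Il6 on this scale. The single mice decide whether these cytokines pass: the adjusted p of Il6 was over 0.05 in 5 of 6 fits that each left out 1 mouse of the comparison, and that of Il11 in 4 of 6, reaching 0.115 and 0.0910. The call of Il6 held only without colitis mouse 4, and that of Il11 only without colitis mouse 2 or 4. These fits kept the log2 fold changes between 4.20 and 5.10 for Il6 and between 3.95 and 5.09 for Il11. In the 8 mice not numbered 4, the log2 fold changes of Il6 and Il11 were 5.16 and 5.40, with limma adjusted p of 0.0334 and 0.0278.

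Osm, the gene of oncostatin M, is expressed mainly by myeloid and other blood-derived cells. It was at 0.67, 0.63 and 0.30 FPKM in colitis mice 1, 2 and 4 and at 0.12, 0 and 0.14 in normal mice 1, 3 and 4, levels that correspond to 13.1 to 19.5 reads and to at most 5.8 reads per mouse. The log2 fold change of 1.80 (SE 0.47) passed the study's limit but not the adjusted one (limma adjusted p = 0.0788). It was 0.49 with an added constant of 1 and 3.14 with 0.01. With a term for the mice numbered 4 the adjusted p of Osm was 0.0316, and in the 8 other mice alone it was 0.0464 with a log2 fold change of 2.34. With that term 1412 genes in all passed, against 165 without it. Osm passed the filter on low values only through the colitis mice, so its p-values in this comparison are not read as a result.

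Lif, a cytokine with roles in stem cells and inflammation, was at 1.12, 1.46 and 1.78 FPKM in colitis mice and at 1.23, 0.99 and 0.85 in normal mice. These ranges overlapped, and the log2 fold change of 0.46 had a 95% interval of -0.51 to 1.43 (limma adjusted p = 0.532). Lif was thus the member of the 4 cytokines with the highest level in normal mice and the smallest difference.

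Among the receptor genes the values of Osmr stood apart from those of the other 3. Osmr was at 7.2, 11.42 and 8.89 FPKM in colitis mice 1, 2 and 4, and at 1.26, 2.31 and 1.91 in normal mice 1, 3 and 4. The groups were far from overlapping, yet the log2 fold change of 2.28 (SE 0.67) had a limma adjusted p of 0.103 in the fit over all groups, in which the spread between the colitis mice receiving BBR enters. In a fit of the normal and colitis mice alone the adjusted p of Osmr was 0.0123.

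Il11ra1, the alpha receptor of IL-11, was at 6.56, 12.02 and 8.19 FPKM in colitis mice and at 17.50, 12.38 and 15.82 in normal mice. The closest values, 12.02 and 12.38, nearly met, and the log2 fold change was -0.80 (SE 0.26, limma adjusted p = 0.126). After quantile normalization Il11ra1 was at -0.52. The near-identical copy Il11ra2 was at most 0.09 FPKM in any mouse. Il6ra, the alpha receptor of IL-6, had values of 0.88, 1.48 and 1.56 in colitis mice against 1.46, 2.5 and 2.93 in normal mice, with a log2 fold change of -0.75 (limma adjusted p = 0.245) that was -0.31 after quantile normalization. Il6st, the gp130 gene, ranged from 6.38 to 15.73 in colitis mice and from 9.60 to 18.26 in normal mice. Its log2 fold change of -0.08 (95% interval -0.97 to 0.80) changed sign with the processing, to 0.17 after quantile normalization.

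Stat3 itself was at 43.31, 39.34 and 53.19 FPKM in colitis mice 1, 2 and 4 and at 32.47, 31.64 and 35.31 in normal mice 1, 3 and 4. All colitis mice were above all normal mice, by a small margin. With a log2 fold change of 0.44 (SE 0.22, limma adjusted p = 0.255) Stat3 passed neither limit, and it was 0.57 after quantile normalization (adjusted p = 0.127).

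Socs3, the feedback inhibitor, had the smallest p-value of the 10 genes. Its values were 38.27, 40.18 and 60.56 FPKM in colitis mice 1, 2 and 4 and 4.65, 2.25 and 3.44 in normal mice 1, 3 and 4. The mean was 13.4 times higher in colitis mice, and every colitis mouse was above every normal mouse. The log2 fold change of 3.74 (SE 0.40, limma adjusted p = 0.00325) ranked 4th by p-value of all genes tested, and the adjusted p of Socs3 stayed at or below 0.0264 with any mouse of the comparison left out. It was 3.56 in the 8 mice not numbered 4.

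**Figure D2:**
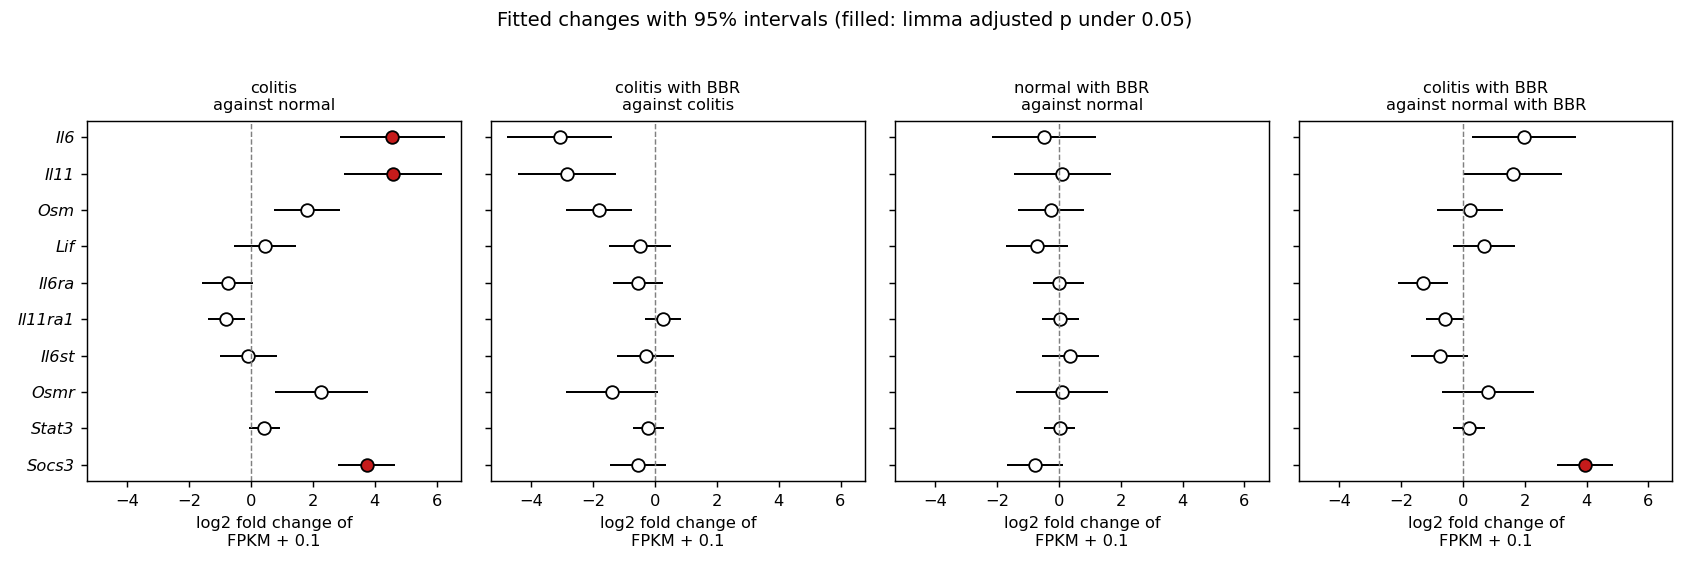
Fitted log2 fold change of FPKM + 0.1 for the 10 genes in 4 comparisons, with 95% intervals from limma. Filled circles passed an adjusted p of 0.05: Il6, Il11 and Socs3 in colitis against normal mice, and Socs3 alone among the 10 in colitis mice receiving BBR against normal mice receiving BBR.

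The next comparison, of colitis mice receiving BBR with colitis mice, asks how BBR altered the pathway in inflamed tissue. The cytokines Il6, Il11 and Osm, whose values did not overlap between colitis and normal mice, had mean levels that were 6.42, 8.46 and 6.96 times lower with BBR. The same colitis mice served in both comparisons. With BBR only 1 of 3 mice was above the value of 3 reads for Il6, and 1 of 3 for Osm, so those ratios are approximate. The fitted values moved with single mice: the log2 fold change of Il6 was -4.10 without mouse 3 receiving BBR and -2.39 without mouse 4, and that of Il11, at -2.84 with all mice, was -2.20 without colitis mouse 2. None of the 10 genes passed the adjusted limit, against 0% of all genes tested, since no gene passed it. At an unadjusted P of at most 0.05, 3 of the 10 genes were lower, against 5.2% of all genes, and 0 were higher, against 1.19%. Without Osm it is 2 of 9, Il6 and Il11. The groups did not overlap for 2 lower genes, Il11 and Osm, against 5.66% of all genes, or for 1 of 9 without Osm.

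Il6 was at 0.15, 1.51 and 0.05 FPKM in colitis mice 2, 3 and 4 receiving BBR. Mouse 3 was just above the lowest colitis mouse, at 1.49, while the other mice of the group were under the value of 3 reads. Against colitis mice its log2 fold change was -3.08 (SE 0.76, limma adjusted p = 0.454). Il11 was at 0.32, 1.49 and 0.53 FPKM in these mice, below the 2.56 of the lowest colitis mouse, with a log2 fold change of -2.84 (SE 0.71, limma adjusted p = 0.477). Osm was at 0.08, 0.12 and 0.03, within the range of normal mice and below the 0.30 of the lowest colitis mouse. Its log2 fold change was -1.82 (SE 0.47, limma adjusted p = 0.486), and these values correspond to no more than 3.4 reads per mouse. With an added constant of 1 or 0.01 it was -0.50 or -2.72. In the 8 mice not numbered 4 the log2 fold changes were -2.92 for Il6, -3.22 for Il11 and -1.91 for Osm, with limma adjusted p of 0.551, 0.548 and 0.551.

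The order of the colitis mice receiving BBR was the same for several genes. Mouse 3 had the highest value of its group for 6 of the 10 genes, namely Il6, Il11, Osm, Lif, Osmr and Socs3, mouse 4 for the other 4 genes, and mouse 2 for 0. For Osmr mouse 3 had 13.68 FPKM, above every colitis mouse, whereas mice 2 and 4 had 1.24 and 2.27, within or close to the range of normal mice. For Osmr the log2 fold change was -1.37 (SE 0.67, limma adjusted p = 0.817) with a 95% interval of -2.83 to 0.09. Without mouse 3 the comparison gave -2.35 for Osmr (limma adjusted p = 0.0353) and -4.10 for Il6 (limma adjusted p = 0.0165), and 58 genes in all passed the adjusted limit. Mouse 3 and mice 2 and 4 of this group thus gave different values for these genes, and the cause was not tested.

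For Socs3 the groups overlapped. It was at 20.76, 61.15 and 23.95 FPKM in colitis mice 2, 3 and 4 receiving BBR. Mice 2 and 4 were below the lowest colitis mouse, at 38.27, and mouse 3 was above the highest, at 60.56. Its log2 fold change was -0.54 (SE 0.40, limma adjusted p = 1.00), with a 95% interval of -1.41 to 0.34, and it was -1.02 without mouse 3.

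The remaining 5 genes passed neither limit between colitis mice with and without BBR. Lif was at 0.53, 2.07 and 0.87 FPKM in colitis mice 2, 3 and 4 receiving BBR, Il6ra at 0.74, 0.72 and 1.12, and Il11ra1 at 10.59, 8.88 and 11.98. Il6st was at 6.45, 8.42 and 14.71, and Stat3 at 33.75, 33.14 and 52.67. All 5 overlapped the colitis mice, with log2 fold changes from -0.54 for Il6ra to 0.26 for Il11ra1 and intervals that included 0.

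Markers of other cell types also differed between the groups. Of 8 neutrophil markers, 2 were higher in colitis than in normal mice past the adjusted limit and all 8 at the unadjusted one, against 0.653% and 5.56% of all genes. In colitis mice receiving BBR against colitis mice 0 passed the adjusted limit and 2 were lower at the unadjusted one, against 5.2% of all genes. These 2, Trem1 and Mmp8, passed the filter on low values only through the colitis mice, as Osm did. No other neutrophil marker was lower at that limit. Both are also among the 8 higher in colitis mice, and Mmp8 is 1 of the 2 past the adjusted limit there. The summed level of 7 neutrophil markers, without Ly6g, was 45.77 to 494.02 FPKM in colitis mice, 2.55 to 218.22 in colitis mice receiving BBR, with the highest value in mouse 2 and not in mouse 3, and at most 2.58 in the 6 mice without DSS. S100a8, which encodes a subunit of the neutrophil protein calprotectin, was at 0 in those 6 mice, at 336.29, 289.73 and 24.90 in colitis mice 1, 2 and 4, and at 118.47, 147.68 and 0.31 in colitis mice 2, 3 and 4 receiving BBR. Ly6g was left out of the sum after its values were seen, because it was at 259.46 FPKM or more in every mouse. Markers of macrophages and monocytes (9 of 9 above 0 in every mouse) summed to 222.53 to 692.04 FPKM in colitis mice, 118.40 to 249.44 in colitis mice receiving BBR, 147.91 to 195.55 in normal mice and 142.88 to 231.71 in normal mice receiving BBR, which overlapped the colitis mice. Of these 9 markers, 0 passed the adjusted limit in colitis against normal mice or in colitis mice receiving BBR against colitis mice. At the unadjusted limit 5 were higher in the former comparison, against 5.56% of all genes, and 6 lower in the latter, against 5.2%. In the latter 4 were lower without overlap, against 5.66%. The 9 fibroblast markers summed to 186.90 to 726.03 in colitis mice, 178.60 to 272.79 in colitis mice receiving BBR, 277.07 to 472.50 in normal mice and 318.08 to 616.99 in normal mice receiving BBR. The 8 smooth muscle markers summed to 89.93 to 802.26 in colitis mice, 562.16 to 3835.1 in colitis mice receiving BBR, 1979.8 to 3517.2 in normal mice and 2747.2 to 5679.6 in normal mice receiving BBR. In colitis against normal mice all 8 were lower at the unadjusted limit, against 15.9% of all genes, and 0 passed the adjusted one. The 6 endothelial markers summed to 5.59 to 14.21 in colitis mice and 20.15 to 27.31 in normal mice, with 3 lower at the unadjusted limit. The part of these cell types in the levels of the 10 genes was not tested.

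Normal mice receiving BBR were compared with normal mice to see what BBR did without inflammation. None of the 10 genes passed the adjusted limit, as for all genes (0%), and none had an unadjusted P of at most 0.05, against 1.36% of all genes tested. Il6 was at 0 in all 3 normal mice receiving BBR, and no fold is given because both groups lay under the value of 3 reads. Lif was the only gene of the 10 whose groups did not overlap, and it was lower, against 5.46% of all genes, with values of 0.43, 0.83 and 0.54 FPKM in normal mice 1, 3 and 4 receiving BBR and a lowest normal mouse of 0.85. Its log2 fold change was -0.71 (SE 0.44, limma adjusted p = 1). Socs3 was at 2.43, 1.55 and 1.86 in normal mice receiving BBR, with a log2 fold change of -0.76 (SE 0.40, limma adjusted p = 1). Stat3, the receptors and Il11 were within 0.37 of 0 on the log2 scale. Intervals of these differences reached from -1.43 to 1.66 for Il11, so changes of that size could not be seen with 3 mice a group.

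Colitis mice receiving BBR were also set against both normal groups, to see what of the change under DSS was present with BBR. Against normal mice receiving BBR, 1 of the 10 genes passed the adjusted limit and was higher, against 0.0261% of all genes tested. That gene was Socs3, with a log2 fold change of 3.96 (SE 0.40, limma adjusted p = 0.00786), the smallest p-value of all genes in that comparison. Against normal mice, 1 of the 10 was again higher past the limit, against 0.00653% of all genes. It was Socs3 as well, with a log2 fold change of 3.20 (SE 0.40, limma adjusted p = 0.0277), which ranked 2nd of all genes. At an unadjusted P of at most 0.05, 3 of the 10 genes were higher and 2 lower against normal mice receiving BBR, beside 2.37% and 17.3% of all genes, and 2 were higher and 1 lower against normal mice, beside 1.84% and 18.3%. The lowest Socs3 value of the DSS mice receiving BBR, 20.76 FPKM, stood well above the highest of the 6 mice without DSS, 4.65. These 2 comparisons share their colitis mice receiving BBR and are not independent, and leaving out single mice moved the adjusted p of Socs3 past 0.05 in 1 of 6 fits against normal mice receiving BBR and in 5 of 6 against normal mice. The exceptions were normal mouse 3 receiving BBR, without which Socs3 was at 3.81 (limma adjusted p = 0.0842), and, against normal mice, every mouse but number 4 of the colitis mice receiving BBR, with limma adjusted p of Socs3 from 0.0518 to 0.230 and log2 fold changes from 2.72 to 3.49. In the 8 mice not numbered 4 Socs3 was at 4.13 and 3.42, past the limit in both comparisons (limma adjusted p = 0.0267 and 0.0255). In those fits 2302 genes in all passed against normal mice receiving BBR and 2157 against normal mice, where 6 and 3 passed with all mice, and without mouse 4 of the colitis mice receiving BBR alone 2255 and 2895 passed. A fit of the compared groups alone ended the call of Socs3 in both, with limma adjusted p of 0.222 and 0.322, and against normal mice it also ended with a replicate block (limma adjusted p = 0.0651) and without the trend (limma adjusted p = 0.0501).

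The cytokines differed among themselves in these comparisons. Against normal mice receiving BBR, in which Il6 was at 0, the mean Il6 level of colitis mice receiving BBR, 0.570 FPKM, was at least 2.59-fold higher when the value of 3 reads in a library stands for 0. This bound rests on mouse 3, at 1.51 FPKM, since mice 2 and 4 were themselves under the value of 3 reads. Il11 was higher than in normal mice in every colitis mouse receiving BBR, at a mean of 0.780 against 0.133 FPKM, with a log2 fold change of 1.75 (SE 0.71, limma adjusted p = 0.228). Against normal mice receiving BBR, in which mouse 4 had 0.46 FPKM, Il11 overlapped, with a log2 fold change of 1.63 (limma adjusted p = 0.245). Il6 overlapped normal mice, with a log2 fold change of 1.49 (limma adjusted p = 0.269) that was 0.48 without mouse 3 receiving BBR, 0.47 with an added constant of 1 and 2.69 with 0.01. Osm, with means of 0.0767 and 0.0867 FPKM, had a log2 fold change of -0.01 with a 95% interval of -1.04 to 1.02. Osmr had a log2 fold change of 0.91 against normal mice and 0.81 against normal mice receiving BBR, and without colitis mouse 3 receiving BBR it was -0.07 and -0.17.

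Il6ra had its lowest mean in colitis mice receiving BBR. Its values of 0.74, 0.72 and 1.12 FPKM were below those of every mouse of both normal groups, whose lowest was 1.46. Of the 15315 genes tested, 3178 were lower without overlap against normal mice and 2754 against normal mice receiving BBR. Il11ra1, at 11.98 or less, was also below every mouse of both normal groups, whose lowest was 12.38. Il6ra had a log2 fold change of -1.29 against normal mice (SE 0.36, limma adjusted p = 0.202) and -1.28 against normal mice receiving BBR (limma adjusted p = 0.214). After quantile normalization these values were -0.65 and -0.71, and the medians of all genes went from -0.42 and -0.40 to -0.012 and -0.026. Without mouse 4 of the colitis mice receiving BBR, Il6ra was at -1.48 and -1.47 and passed the adjusted limit in both comparisons (limma adjusted p = 0.0312 and 0.0357). In those fits 2895 and 2255 genes in all passed.

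Whether the effect of DSS on a gene differed with BBR was tested as an interaction, the log2 fold change under DSS with BBR minus that without. None of the 10 genes passed the adjusted limit, as for all genes tested (0%). At an unadjusted P of at most 0.05, 3 of the 10 genes were lower, against 1.72% of all genes, or 2 of 9 without Osm. They were Il11 at -2.96 (SE 1.00), Il6 at -2.60 (SE 1.07) and Osm at -1.56 (SE 0.67), each with a limma adjusted p of 1.00. The value of Il6 was -1.52 with an added constant of 1 and -1.80 with 0.01. For Socs3 the interaction was 0.22 (SE 0.57, limma adjusted p = 1.00), with a 95% interval of -1.02 to 1.46. It was -0.26 without colitis mouse 3 receiving BBR and -0.02 without normal mouse 1.

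**Figure D3:**
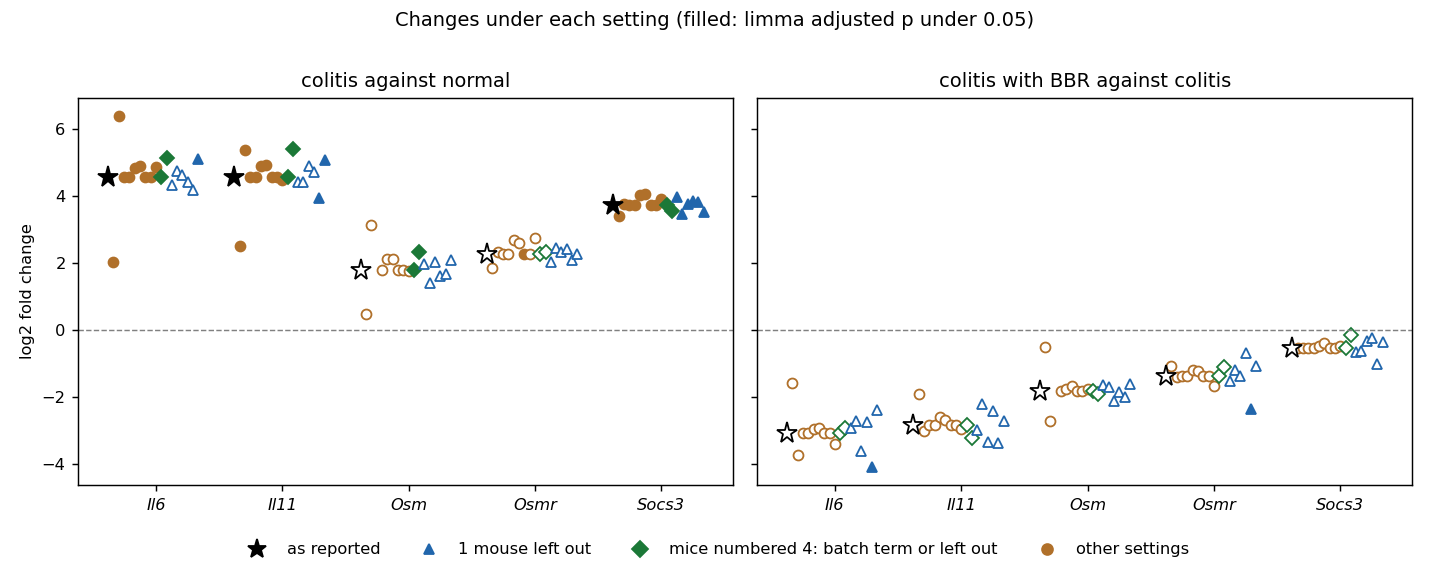
Log2 fold changes of Il6, Il11, Osm, Osmr and Socs3 in colitis against normal mice (left) and colitis mice receiving BBR against colitis mice (right) under each processing setting. The star is the value as reported, triangles leave out 1 mouse each, diamonds model or leave out the mice numbered 4, circles are the other settings, and filled symbols passed an adjusted p of 0.05. No point crosses 0, and on the right only 2 points are filled, those of Il6 and Osmr without mouse 3 of the treated group.

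Genes that Stat3 is known to induce were examined as a list of 25, all of them tested. In colitis against normal mice 6 rose past the adjusted limit and 0 fell, against 0.653% and 0.424% of all genes. At an unadjusted P of at most 0.05, 12 of the 25 were higher and 3 lower, against 5.56% and 15.9% of all genes, and the median log2 fold change was 0.67, against -0.32 for all genes tested. Fut2, which fucosylates glycans of the epithelium, was at 175.76, 192.28 and 187.96 FPKM in colitis mice and at 59.30, 43.01 and 50.45 in normal mice (log2 fold change 1.87, limma adjusted p = 0.0195). Lrg1, a secreted acute-phase glycoprotein, was at 153.01, 32.90 and 222.29 in colitis mice and at 1.08, 2.43 and 3.54 in normal mice (5.55, limma adjusted p = 0.0218). The other genes named by the smallest p were Saa3, an acute-phase protein, at 8.72 (limma adjusted p = 0.0279), and the antimicrobial lectins Reg3g at 7.83 (limma adjusted p = 0.0362) and Reg3b at 9.29 (limma adjusted p = 0.0433). Reg3g was at 0 in all 3 normal mice and Reg3b in 2 of 3, so their fitted values depend on the added constant. Single mice decide this count too: of the 25 genes, 7 passed without colitis mouse 4, 1 without colitis mouse 2, and 0 without any other mouse of the comparison. The 3 genes that were lower at the unadjusted limit were the survival factor Mcl1 and the AP-1 subunits Fos and Junb.

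In colitis mice receiving BBR against colitis mice, 0 of the 25 genes passed the adjusted limit, as for all genes (0%). At an unadjusted P of at most 0.05, 9 were lower and 1 was higher, against 5.2% and 1.19% of all genes, but 0 of the 25 were lower without overlap between the groups, against 5.66% of all genes. The median log2 fold change was -0.81 against -0.09 for all genes. Those with the smallest P were Lrg1 at -3.17, Reg3b at -5.97 and Saa3 at -4.74, with limma adjusted p of 0.510, 0.548 and 0.568. Reg3b was at 0, 75.31 and 0.22 FPKM in colitis mice 2, 3 and 4 receiving BBR, Lrg1 at 4.86, 58.45 and 5.24, and Il4ra, the alpha receptor of IL-4, at 6.40, 26.46 and 6.19, so that mouse 3 was the high mouse for these genes. Other genes of the list had another order, with Saa3 at 38.02, 63.57 and 1.13 and Lcn2, the gene of the antibacterial protein lipocalin 2, at 26.01, 23.47 and 3.82, for which mouse 4 was the low mouse. Il4ra and Lcn2 were chosen after their values were seen. Fut2, at 90.07, 225.74 and 103.54, was above all normal mice in each of the 3, as Socs3 was. In normal mice receiving BBR against normal mice 0 of the 25 passed the adjusted limit (0% of all genes), and 1, Fos, was lower at the unadjusted limit (-1.67, limma adjusted p = 1), which 1.36% of all genes passed in either direction.

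**Figure D4:**
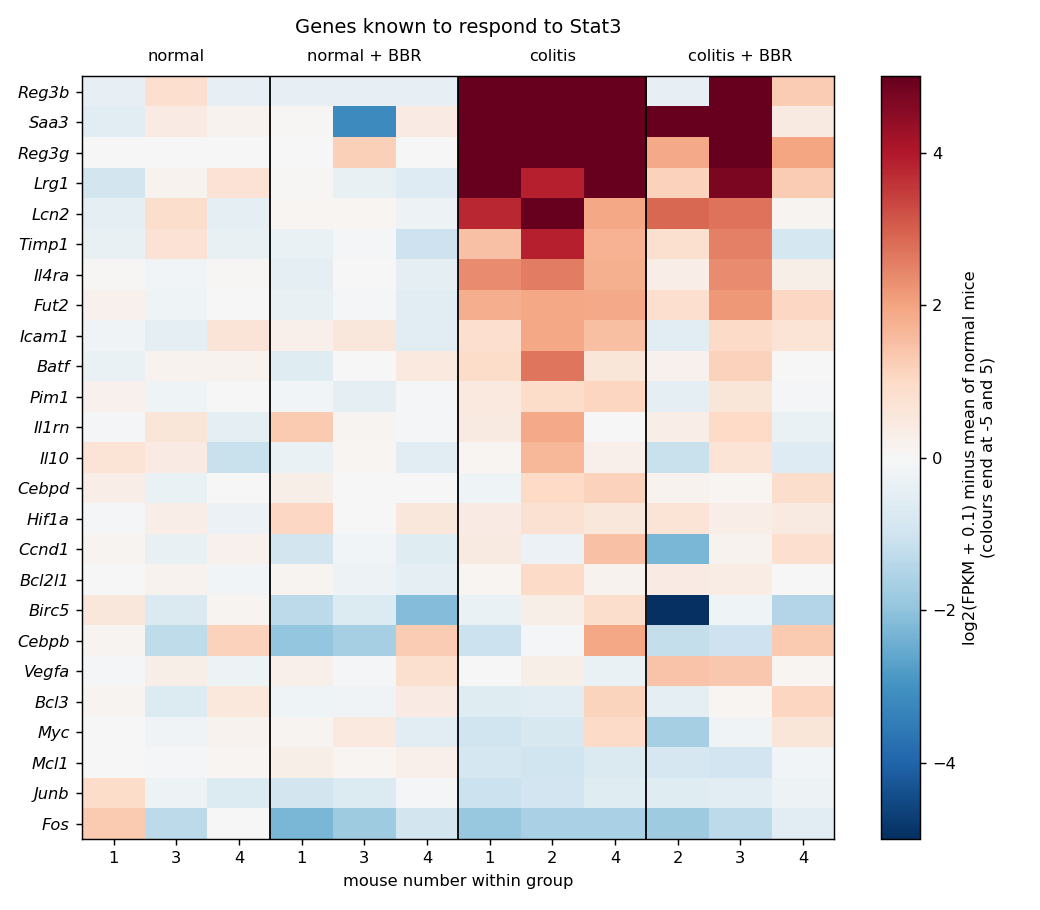
Heatmap of the 25 genes known to respond to Stat3 in each of the 12 mice. Colour is log2(FPKM + 0.1) minus the mean of the normal mice, with colours ending at -5 and 5, and genes are ordered by their mean in colitis mice. Reg3b, Saa3, Reg3g and Lrg1 are red to dark red in colitis mice and in mouse 3 of the colitis mice receiving BBR, Saa3 is also dark red in mouse 2 of that group, and Mcl1, Junb and Fos are blue in colitis mice.

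Of 21 other genes of the family and the gp130 pathway, 20 were in the table and 18 were tested. In colitis against normal mice, 1 of them passed the adjusted limit and was lower, against 0.424% of all genes, and 0 were higher, against 0.653%. It was Ctf1, the gene of the family cytokine cardiotrophin 1, at 0.41, 0.49 and 0.61 FPKM in colitis mice and 2.39, 2.48 and 1.43 in normal mice (log2 fold change -1.84, SE 0.34, limma adjusted p = 0.0312). The count of genes past the limit was 2 without colitis mouse 4 and 0 without any other mouse of the comparison. Colitis mice receiving BBR had 1.2, 0.65 and 1.19 FPKM of Ctf1, a log2 fold change of 0.85 against colitis mice (limma adjusted p = 0.693). Among the genes past the unadjusted limit were the inhibitor Socs1, with a log2 fold change of 1.43, the membrane protease Adam10 at 0.63 and the inhibitor Cish at -1.99. The inhibitors thus differed among themselves, with Socs1 at 6.00, 5.64 and 13.66 FPKM in colitis mice against 2.46 to 3.06 in normal mice, and Cish at 2.47, 1.40 and 4.12 against 8.21 to 12.48. The median of the 18 log2 fold changes was -0.10, and 0 of them passed the adjusted limit in any comparison with BBR.

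For each member the 3 genes with the most similar pattern were found by Pearson's r of log2 values over the 12 mice, among tested genes with a mean of at least 1. They describe these 12 mice, which share their groups and the difference of the mice numbered 4. For Il6 they were Cxcl3 (r = 0.983), Prss22 (r = 0.982) and Il5ra (r = 0.980), and for Il11 they were Il5ra (r = 0.971), Ranbp17 (r = 0.964) and Cxcl2 (r = 0.947). Cxcl3 and Cxcl2 encode chemokines that attract neutrophils. Socs3 was closest to Slc5a9 (r = 0.974), Fut2 (r = 0.974) and Cd38 (r = 0.969), of which Fut2 also belongs to the list of Stat3-responsive genes. Il6st was closest to Rbms3 (r = 0.972), Fstl1 (r = 0.970) and Colec12 (r = 0.970), and Il11ra1 to Camk1 (r = 0.967), Slc48a1 (r = 0.952) and Ppp1r14a (r = 0.941). Osmr was closest to Tgm5 (r = 0.953), Ankdd1b (r = 0.952) and Prr5l (r = 0.946), and Il6ra to Fcrls (r = 0.930), Mgl2 (r = 0.923) and Prkar2b (r = 0.922). The values for Lif, Osm and Stat3 were at most 0.907.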

How the data were processed

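By the study's methods, RNA was treated with Ribo-Zero and sequenced in single-end reads of 50 bases, which the authors cleaned with SOAPnuke, mapped with Bowtie2 2.2.5 and quantified with RSEM 1.2.12. The labels name another library kit and sequencer. The submitters' processing notes name mm9. The table deposited by the authors gives each gene of each mouse a single number, taken as FPKM because of its range and steps. No read counts are in the table used, so the depth was judged by how low values are spaced, by which 3 reads were worth 0.14 to 0.22 FPKM for Il6.

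Values were used without further scaling, as log2(FPKM + 0.1), and genes that averaged at least 0.1 were fitted by limma 3.58.1 (R 4.3.3) with group means only and a trend on expression. The fit was tested on simulated data. Exact permutation tests, motif searches and plots were run in Python 3.11.15 with SciPy 1.17.1, matplotlib 3.10.9, NumPy 2.4.6 and pandas 2.3.3. Members and lists were chosen with earlier results of these data known. The 10 members were all named, and of each list the genes with the smallest p. Alternatives were other constants, filters and scalings, fits of the compared groups, without trend, with a replicate block or a term for the mice numbered 4, and with mice left out. Deviations from the group mean in normal mice with and without BBR correlated at r = 0.29, 0.109 and 0.657 for the same numbers 1, 3 and 4. Numbers 1 and 3 correlated with each other between these groups at 0.366 and 0.456, so only the mice numbered 4 stood apart. Over all groups, mice numbered 1 to 3 correlated with other numbers at a mean r of 0.193 and with their own at 0.205. A block for the number changed no call between the normal groups. Other groups share fewer numbers. The result of 1 gene of the pathway list is not reported here.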

Additional observations from a re-analysis of the deposited data

How the results depend on the processing

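Over 37 results for single members, 646 values under alternative settings were computed, of which 610 kept their direction and their side of the adjusted limit, 19 lost the limit, 8 gained it and 9 changed sign. In colitis against normal mice the number of members past the limit was 3 to 4 under the other settings and 1 to 3 with 1 mouse left out. It was 0 in colitis mice receiving BBR against colitis mice, and 0 to 2 with 1 mouse left out. Against normal mice receiving BBR it was 1 in the reported fit, 0 with the compared groups alone and 0 to 3 with 1 mouse left out. Against normal mice it was 1, 0 with the compared groups alone, 0 without the trend and 0 to 2 with 1 mouse left out. With the replicate number as a block, 0 members passed there, where Socs3 was at 3.44, and 734 genes in all passed in colitis against normal mice, against 165 without it. The block changed no other call of a member. The cause of these changes was not tested.

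Il6st in colitis against normal mice changed sign to 0.17 with quantile normalization, 0.25 with median centring, 0.035 without the mice numbered 4, 0.22 without normal mouse 4 and 0.33 without colitis mouse 1, and its range with 1 mouse left out was -0.31 to 0.33. Osmr without mouse 3 of the colitis mice receiving BBR was -0.17 against normal mice receiving BBR and -0.073 against normal mice, with ranges up to 1.51 and 1.61 when 1 mouse was left out. The interaction of Socs3 was -0.02 without normal mouse 1 and -0.26 without that mouse 3, with a highest value of 0.51. The number of all genes past the limit in colitis against normal mice was 11 to 211 with 1 mouse left out and 71 to 1412 under the other settings. In colitis mice receiving BBR it was 0 to 2255 and 0 to 2302 against normal mice receiving BBR, and 0 to 2895 and 0 to 2157 against normal mice. In colitis against normal mice, 0 to 7 of the 25 Stat3-responsive genes passed with 1 mouse left out and 3 to 8 under the other settings. Of the 18 pathway genes, 0 to 2 and 0 to 5 passed in that comparison. The depth limits Il6 and Osm, whose values in mice without DSS stand for a few reads at most. It also limits Il11, for which only the mice numbered 4 of the normal groups were above the value of 3 reads.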
